A study of Mus musculus with 2 samples.

Results

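The genes described here are 38 mouse genes for enzymes of amino acid catabolism and one-carbon metabolism, chosen by name as 1 functional group and sorted by the amino acid they act on. All 38 were measured, out of 16698 genes measured in all. The arrays hold 52 probes for them among 41174 gene probes, and the brightest probe stood for each gene. Kidney RNA of male CD-1 mice was compared between 2 diets: the HMPA diet, which held 0.2% adenine and 2% HMPA by weight, and the adenine diet, which held 0.2% adenine alone. HMPA is the phenolic compound 3-(4-hydroxy-3-methoxyphenyl)propionic acid, and a diet with adenine damages the tubules and serves as a model of chronic kidney disease (CKD). Both groups therefore ate adenine, and adenine-free kidneys were not hybridised. The labels give a starting age of 7 weeks and a diet of 1 week, whereas the sample titles give 12 weeks of age and name 5 mice. They do not say whether RNA was pooled.

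Each of 2 dual-colour arrays held both conditions, with HMPA in Cy5 (red) on array 1 and in Cy3 (green) on array 2. No label assigns different animals or extracts to the 2 arrays, so they were read as the same pair of RNA samples labelled both ways. The spread between animals is unknown, and no p-value is given. "Higher" and "lower" are used by a size rule: the mean of both arrays had to reach 2-fold, and each array alone 1.5-fold with the same sign. Ratios are log2 of HMPA over adenine alone, so a log2 ratio of 1 is 2-fold, and ± gives how far either array lay from the mean of both. Signals are normalized log2 intensities of 1 probe, which can be compared between conditions but not between genes. With HMPA, 57.9% and 61.2% of gene spots were well above background on arrays 1 and 2, against 60.9% and 67.9% with adenine alone.

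Catabolic enzymes strip the amino group from an amino acid and break its carbon skeleton into pieces that enter the citric acid cycle, glucose synthesis or ketone bodies. The long routes for branched-chain amino acids, lysine and proline run mostly in mitochondria, while those for tyrosine and much of tryptophan run in the cytosol. One-carbon metabolism collects single carbons from choline, glycine and serine on folate or on homocysteine. In kidney many of these enzymes are made by the proximal tubule, the segment that takes filtered amino acids back from the urine.

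The probe sequences set what each ratio measures. Prodh2, hydroxyproline dehydrogenase, was read by a pair of 60-base probes on mouse build mm9, at chr7:31296177-31296236 and chr7:31296186-31297831 on the plus strand, that share 51 bases (in capitals). They are shown because they read almost the same stretch of transcript, so their ratios compare probes rather than transcripts. The second spreads its 60 bases over 1646 bases of the genome, as a probe that crosses a splice junction does.
Prodh2 first probe: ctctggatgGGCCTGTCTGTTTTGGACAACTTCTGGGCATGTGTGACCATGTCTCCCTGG
Prodh2 second probe: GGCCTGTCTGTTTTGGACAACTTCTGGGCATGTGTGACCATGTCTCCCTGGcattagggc
The log2 ratio was 1.37 on array 1 and 1.60 on array 2 for the first probe. It was 1.61 and 1.92 for the second, which read higher than the first on both arrays.

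The probes of Hpd, Agxt2 and Acmsd are shown because their ratios depended most on the background correction, as described further on. Each of the 3 also spans more of the genome than its own 60 bases. On mm9 they lie at chr5:123622237-123624360 on the minus strand, chr15:10323555-10328821 on the plus strand and chr1:129642380-129645602 on the plus strand, in that order.
Hpd probe: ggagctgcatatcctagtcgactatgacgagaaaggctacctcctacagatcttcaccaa
Agxt2 probe: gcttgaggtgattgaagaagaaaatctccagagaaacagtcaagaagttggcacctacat
Acmsd probe: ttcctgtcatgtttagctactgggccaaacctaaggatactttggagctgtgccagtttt

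Of the 38 genes, 31 were higher with HMPA than with adenine alone and 0 were lower, and 37 had a log2 ratio above 0. Among all 16698 genes measured, 6.64% were higher by the same rule and 7.72% were lower. The median log2 ratio of the 38 genes was 1.56, against −0.04 for all genes, and the values ran from −0.10 for Kynu to 2.94 for Dmgdh. At least 4-fold higher were 6 of the 38 genes, against 1.53% of all genes. With the ratios computed by the scanner software itself, these numbers were 15 of the 38 genes and 3.52% of all genes. The arrays gave medians of 1.51 (array 1) and 1.53 (array 2), and Pearson's r between them over the 38 genes, which share both RNA samples, was 0.83. The distance of each array from the mean was under 0.3 for 35 genes and reached 0.42 for Bhmt. Its median was 0.17 for the 38 genes, larger than the 0.11 for all genes. The ratio was higher on array 2 for 25 of the 38 genes and on array 1 for 13.

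**Figure D1:**
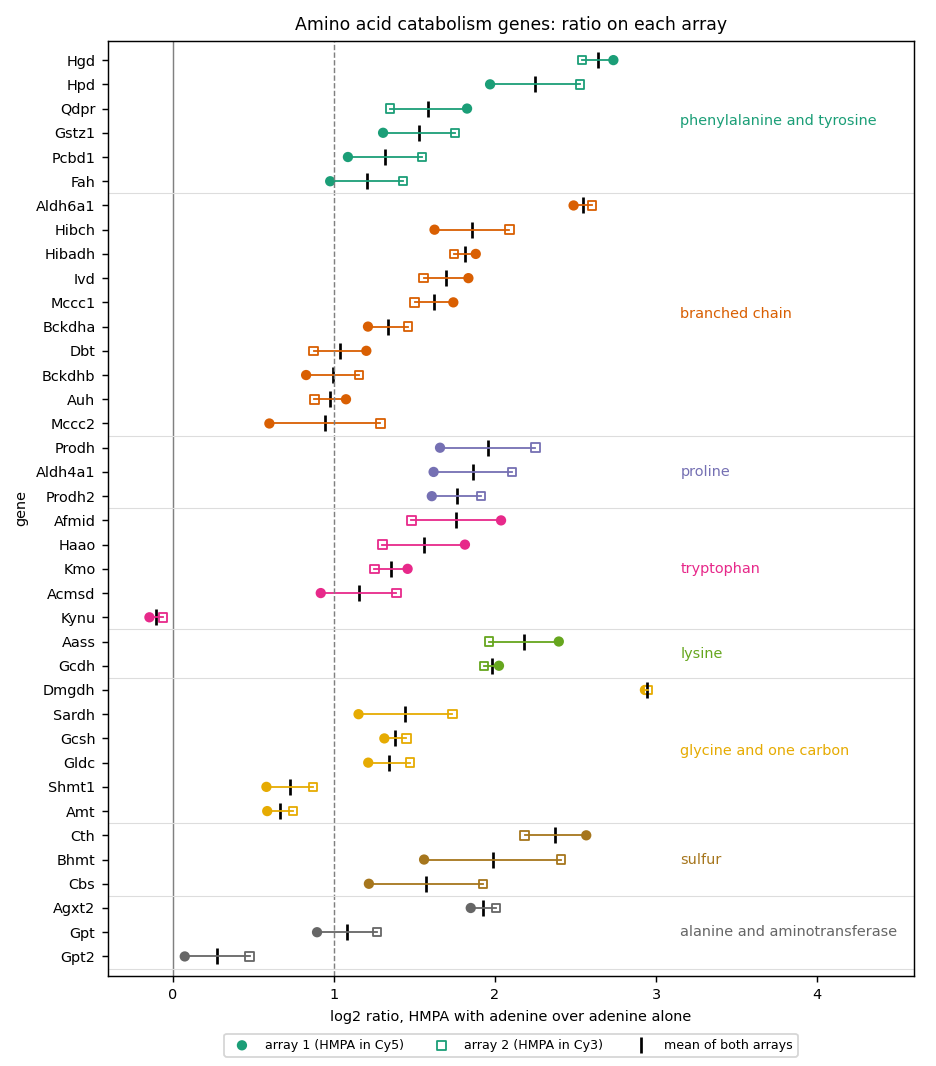
Log2 ratio of HMPA with adenine over adenine alone (x axis) for each of the 38 genes (y axis), grouped by substrate; filled circles are array 1, open squares array 2 and black bars their mean, with a solid line at 0 and a dashed line at 1 (2-fold). Only Kynu lies below 0 on both arrays, and Dmgdh, at 2.94, has the highest mean.

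All 6 genes of phenylalanine and tyrosine breakdown were higher with HMPA, with a median log2 ratio of 1.56. Hgd, homogentisate dioxygenase, opens the aromatic ring of tyrosine and is the enzyme lost in people with alkaptonuria. Its signals were 10.73 and 10.81 with HMPA on arrays 1 and 2, against 7.99 and 8.27 with adenine alone, a log2 ratio of 2.64 ± 0.10. Hpd, the dioxygenase that makes homogentisate for Hgd, had signals of 8.0 and 8.54 with HMPA, against 6.03 and 6.01 with adenine alone, a log2 ratio of 2.25 ± 0.28. For both genes the signals with HMPA lay above all signals with adenine alone.

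Downstream of Hgd the ratios were smaller. Gstz1, the isomerase of maleylacetoacetate, had signals of 11.26 and 11.56 with HMPA, against 9.95 and 9.81 with adenine alone (log2 ratio 1.53 ± 0.22). Fah splits fumarylacetoacetate in the last step and is the enzyme lost in people with tyrosinaemia of the first type. Its signals were 11.13 and 11.45 with HMPA, against 10.15 and 10.02 with adenine alone, a log2 ratio of 1.20 ± 0.23.

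Both enzymes that recycle tetrahydrobiopterin, a cofactor of aromatic amino acid metabolism, were higher too. Qdpr, the reductase, had signals of 12.37 and 12.27 with HMPA, against 10.54 and 10.92 with adenine alone (log2 ratio 1.59 ± 0.24). Pcbd1, the dehydratase, which also binds the transcription factor HNF1 as a dimerization cofactor, had signals of 13.50 and 14.02 with HMPA, against 12.41 and 12.48 with adenine alone (log2 ratio 1.32 ± 0.23). Tat, the tyrosine aminotransferase that feeds Hpd, did not meet the rule, at −0.02 ± 0.03 with signals of 6.54 and 6.47 with HMPA, against 6.60 and 6.46 with adenine alone. Within the route, then, Hpd and Hgd had means of 4-fold or more and Tat lay near 0. Tat and Hpd were both dim, with mean log2 signals of 6.51 and 7.16, and Hpd read 1.97 on array 1, just under 4-fold.

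**Figure D2:**
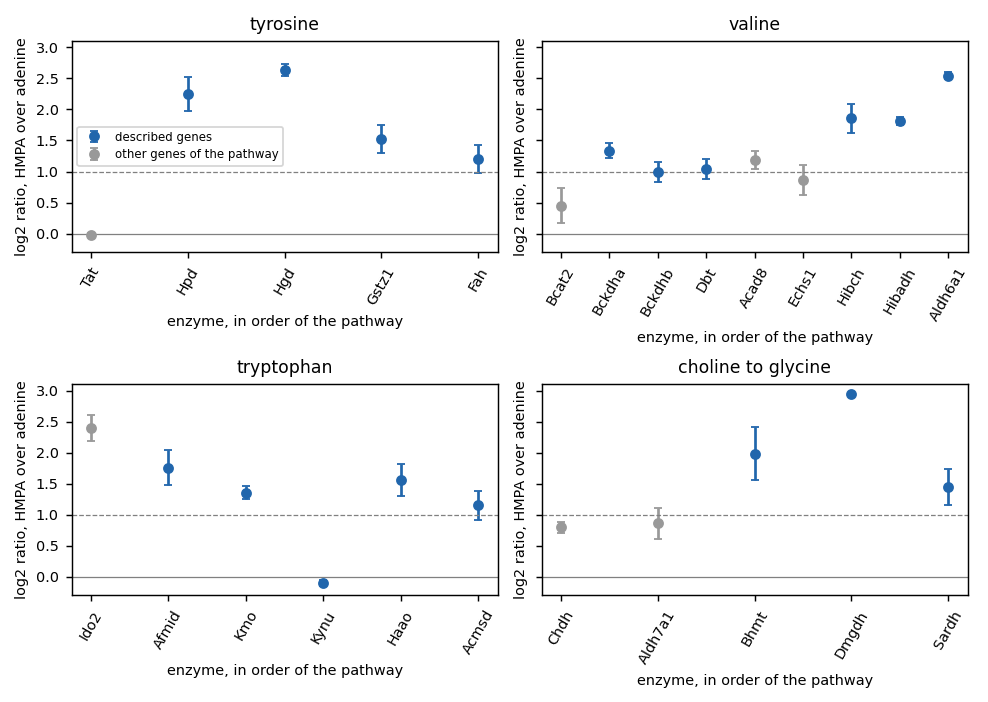
Log2 ratio of HMPA with adenine over adenine alone (y axis, mean of both arrays, bars from 1 array to the other) for the enzymes of 4 routes in the order in which they act (x axis); blue points are among the 38 genes and grey points are other genes of the routes, with a dashed line at 1 (2-fold). Tat, at the start of the tyrosine route, lies near 0, and so does Kynu, between higher neighbours of the tryptophan route. Both Tat and Kynu were dim.

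Of 10 genes for branched-chain amino acids, 7 were higher and the other 3 lay just under 2-fold, with a median of 1.48. The 3 genes of the valine branch had the highest values, from 1.81 to 2.54. Aldh6a1, methylmalonate semialdehyde dehydrogenase, takes the last step of that branch and had signals of 13.62 and 13.88 with HMPA, against 11.13 and 11.28 with adenine alone, a log2 ratio of 2.54 ± 0.06. Hibch, which frees 3-hydroxyisobutyrate from its CoA, had signals of 11.55 and 11.84 with HMPA, against 9.93 and 9.75 with adenine alone (log2 ratio 1.86 ± 0.23). Hibadh, the dehydrogenase that follows it, had signals of 13.16 and 13.31 with HMPA, against 11.28 and 11.56 with adenine alone (log2 ratio 1.81 ± 0.07). A second, dimmer probe of Hibch read 1.01 here, but 2.71 with the ratios that the scanner software computed, against 1.91 for the brighter probe.

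In the leucine branch 2 of 4 genes met the rule. Ivd, isovaleryl-CoA dehydrogenase, had signals of 12.60 and 12.49 with HMPA, against 10.76 and 10.93 with adenine alone (log2 ratio 1.70 ± 0.14). Mccc1 carries biotin as the alpha subunit of methylcrotonyl-CoA carboxylase, and its signals were 12.74 and 12.64 with HMPA, against 11.00 and 11.13 with adenine alone (log2 ratio 1.62 ± 0.12). Mccc2, the beta subunit of the same enzyme, did not meet the rule. It had signals of 7.18 and 7.72 with HMPA, against 6.58 and 6.43 with adenine alone, and a log2 ratio of 0.95 ± 0.34. Its second probe was well above background in 2 of 4 channels only and set no reliable ratio: it read 0.23 here, but 2.01 with the scanner software's ratios, against 1.83 for the main probe. Auh, the methylglutaconyl-CoA hydratase, had signals of 11.75 and 11.77 with HMPA, against 10.67 and 10.89 with adenine alone, and a log2 ratio of 0.98 ± 0.10. A dimmer Auh probe from another transcript read 0.26.

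The branched-chain ketoacid dehydrogenase complex commits all 3 branched-chain amino acids to breakdown. The 3 of its subunits that are among the 38 genes had a median of 1.04. Bckdha, E1 alpha, had signals of 12.51 and 12.58 with HMPA, against 11.30 and 11.12 with adenine alone (log2 ratio 1.34 ± 0.12). Dbt, the E2 core, lay just inside the rule, with signals of 9.73 and 9.51 with HMPA, against 8.53 and 8.64 with adenine alone (log2 ratio 1.04 ± 0.16). Bckdhb, E1 beta, lay just outside it at 0.99 ± 0.16, with signals of 9.94 and 10.25 with HMPA, against 9.11 and 9.10 with adenine alone, and a second probe of it read 1.02. The distance between Dbt and Bckdhb was smaller than the distance of either array from its mean, so the rule does not separate them. Bcat2, the mitochondrial aminotransferase before the complex, did not meet the rule, at 0.45 ± 0.28, with signals of 6.83 and 7.28 with HMPA, against 6.66 and 6.55 with adenine alone. Its other 2 probes read 0.38 and −0.01. All 3 Bcat2 probes were dim, and with the scanner software's ratios they read 0.92, 0.99 and −0.02 in the same order.

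**Figure D3:**
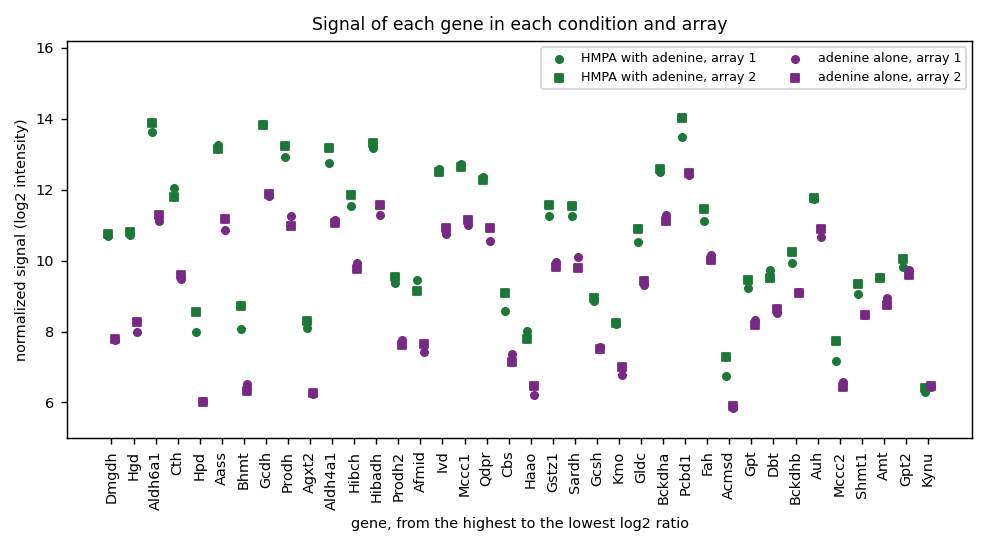
Normalized log2 signal (y axis) of the probe of each of the 38 genes, from the highest to the lowest log2 ratio (x axis); green marks are HMPA with adenine and purple marks adenine alone, circles array 1 and squares array 2. The green marks lie above the purple ones on both arrays for every gene but Kynu, and signals of different genes cannot be compared because each probe binds with its own strength.

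All 3 genes of proline and hydroxyproline breakdown were higher, with a median of 1.86. Prodh, the inner-membrane enzyme that oxidizes proline, had signals of 12.91 and 13.23 with HMPA, against 11.25 and 10.98 with adenine alone (log2 ratio 1.96 ± 0.30). Aldh4a1, which takes the products of both proline and hydroxyproline further, had signals of 12.76 and 13.18 with HMPA, against 11.14 and 11.07 with adenine alone (log2 ratio 1.86 ± 0.24). A second and much dimmer Aldh4a1 probe read 0.85 here, but 2.67 with the ratios of the scanner software, against 1.91 for the brighter probe, so the order of the 2 probes turned with the processing. Prodh2, whose probes are printed above, had signals of 9.38 and 9.54 with HMPA for its brighter probe, against 7.77 and 7.62 with adenine alone (log2 ratio 1.76 ± 0.15). Hydroxyproline comes mostly from collagen.

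Both lysine genes were higher, and their median of 2.08 was the highest of the substrate groups. Aass carries out the first pair of steps of lysine breakdown in mitochondria. Its signals were 13.27 and 13.14 with HMPA, against 10.88 and 11.17 with adenine alone, a log2 ratio of 2.18 ± 0.22. Gcdh, glutaryl-CoA dehydrogenase, is shared by lysine and tryptophan breakdown and is the enzyme lost in people with glutaric aciduria of the first type. It had signals of 13.84 and 13.82 with HMPA, against 11.82 and 11.89 with adenine alone (log2 ratio 1.98 ± 0.05).

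Of 5 tryptophan genes, 4 were higher and Kynu was not, with a median of 1.36. Afmid, which makes kynurenine from its formyl precursor, had signals of 9.45 and 9.13 with HMPA, against 7.41 and 7.65 with adenine alone (log2 ratio 1.76 ± 0.28). Kmo, which hydroxylates kynurenine at the outer mitochondrial membrane, had signals of 8.22 and 8.24 with HMPA, against 6.76 and 6.99 with adenine alone (log2 ratio 1.36 ± 0.10). Kynu, kynureninase, cleaves the product of Kmo, and was the gene whose ratio lay below 0. Its signals were 6.29 and 6.39 with HMPA, against 6.43 and 6.45 with adenine alone, a log2 ratio of −0.10 ± 0.04 that is far from the rule. Kynu was dim, with a mean log2 signal of 6.39, and its second probe was well above background in 0 of 4 channels.

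The 2 enzymes after Kynu were higher again. Haao, which opens the ring of 3-hydroxyanthranilate on the way to NAD, had signals of 8.01 and 7.78 with HMPA, against 6.20 and 6.48 with adenine alone (log2 ratio 1.56 ± 0.26). Acmsd diverts the product of Haao away from NAD synthesis. Its signals were 6.76 and 7.29 with HMPA, against 5.84 and 5.90 with adenine alone, a log2 ratio of 1.15 ± 0.23. With adenine alone it was well above background on array 2 but not on array 1, so it was measured in 3 of 4 channels, whereas the other 37 genes were measured in all 4. Upstream, Ido2, which starts the route by opening the indole ring, was higher at 2.40 ± 0.20, with signals of 8.45 and 8.78 with HMPA, against 6.25 and 6.18 with adenine alone. Tdo2, which catalyses the same reaction chiefly in liver, was too dim to be measured.

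Of 6 genes for glycine and one-carbon steps, 4 were higher, with a median of 1.36 and the widest spread of any group, from 0.67 to 2.94. Dmgdh, dimethylglycine dehydrogenase, had the highest ratio of all 38 genes in this processing, with signals of 10.69 and 10.74 with HMPA, against 7.76 and 7.79 with adenine alone. That is a log2 ratio of 2.94 ± 0.01, or 7.68-fold, with the smallest gap between the arrays among the 38 genes. With the scanner software's ratios Dmgdh read 3.31, below Hpd, Acmsd and Agxt2. Sardh removes the next methyl group, from sarcosine, and its signals were 11.26 and 11.53 with HMPA, against 10.11 and 9.80 with adenine alone (log2 ratio 1.44 ± 0.29).

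The glycine cleavage system splits glycine into carbon dioxide, ammonia and a folate-bound carbon. Its P protein, Gldc, had signals of 10.52 and 10.90 with HMPA, against 9.30 and 9.42 with adenine alone (log2 ratio 1.34 ± 0.13). Gcsh, the H protein, had signals of 8.87 and 8.94 with HMPA, against 7.56 and 7.49 with adenine alone (log2 ratio 1.38 ± 0.07). The probe of Gcsh also lists a second locus, Gm9199, so its signal may hold both. Amt, the T protein, did not meet the rule, at 0.67 ± 0.08, with signals of 9.53 and 9.5 with HMPA, against 8.94 and 8.76 with adenine alone. Shmt1, the cytosolic enzyme that exchanges serine and glycine, was also below it at 0.73 ± 0.14, with signals of 9.05 and 9.34 with HMPA, against 8.47 and 8.47 with adenine alone. In both genes the signals with HMPA lay above those with adenine alone on each array.

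All 3 sulfur amino acid genes were higher, with a median of 1.99. Cth, cystathionine gamma-lyase, makes cysteine and also hydrogen sulfide, and had signals of 12.04 and 11.79 with HMPA, against 9.48 and 9.61 with adenine alone, a log2 ratio of 2.38 ± 0.19. Cbs, which makes the cystathionine that Cth splits, had signals of 8.58 and 9.08 with HMPA, against 7.36 and 7.15 with adenine alone (log2 ratio 1.57 ± 0.35). Bhmt remethylates homocysteine with betaine and thereby makes the dimethylglycine that Dmgdh uses. Its signals were 8.08 and 8.72 with HMPA, against 6.52 and 6.31 with adenine alone, a log2 ratio of 1.99 ± 0.42. The arrays differed more for Bhmt than for any other of the 38 genes, with ratios of 1.56 on array 1 and 2.41 on array 2, and its probe also lists an accession of the close paralog Bhmt2. Its own level is therefore uncertain.

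Of the 3 alanine and related aminotransferases, 2 were higher, with the lowest median of the substrate groups, 1.08. Agxt2, a mitochondrial aminotransferase that also breaks down asymmetric dimethylarginine, had signals of 8.09 and 8.28 with HMPA, against 6.24 and 6.28 with adenine alone (log2 ratio 1.93 ± 0.08). Gpt, the cytosolic alanine aminotransferase, had signals of 9.22 and 9.45 with HMPA, against 8.32 and 8.18 with adenine alone (log2 ratio 1.08 ± 0.19). Gpt2, its mitochondrial counterpart, did not meet the rule at 0.28 ± 0.20. Its signals were 9.82 and 10.06 with HMPA, against 9.74 and 9.58 with adenine alone, and on array 1 they differed by less than 0.1.

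By compartment, 18 of 23 genes for mitochondrial enzymes were higher, with a median of 1.62, and 13 of 15 for cytosolic enzymes, with a median of 1.56. The substrate groups hold 2 to 10 genes each, and no test of a difference between them was made. Their order also moved with the processing: with the scanner software's own ratios the medians were 2.45 for sulfur, 2.21 for tryptophan, 2.17 for lysine and 1.31 for the aminotransferases.

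Dim genes moved most. The correction used here added an offset of 50 to every signal, which draws the ratio of a dim probe towards 0. Of the 38 genes, 8 had a mean log2 signal under 8, and their median was 1.46 with the offset of 50, 2.02 with an offset of 16 and 3.00 with the scanner software's ratios. The other 30 genes had medians of 1.58, 1.65 and 1.66 under the same settings. Hpd, whose probe is printed above, read 2.25 here and 4.42 with the scanner software. Acmsd read 1.15 and 3.75, Agxt2 1.93 and 3.32, and Bhmt 1.99 and 3.20. With the scanner software's ratios 34 of the 38 genes met the rule, and 12.2% of all genes were higher and 14.7% lower. Kynu read −0.29 with the scanner software, still within 2-fold.

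**Figure D4:**
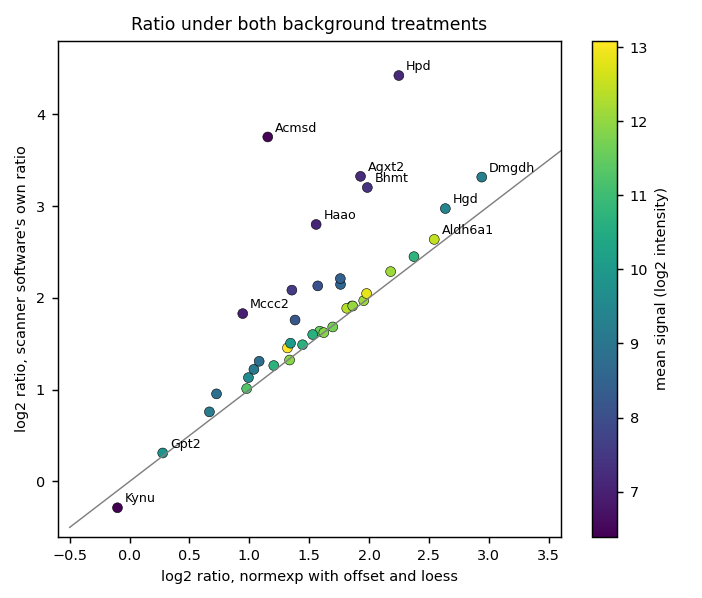
Log2 ratio of HMPA with adenine over adenine alone from the scanner software (y axis) against that after normexp correction with offset and loess (x axis) for the 38 genes, coloured by mean log2 signal, with a line of equal values. Hpd, Acmsd, Agxt2, Bhmt and Haao are dim and lie well above the line, while bright genes such as Aldh6a1 lie close to it.

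Other genes of the same routes were less uniform. Of 83 such genes, 75 were measured, 32 were higher and 2 were lower (median 0.77). By substrate, 5 of 5 measured tryptophan genes were higher, 9 of 17 for glycine and one-carbon steps, 7 of 13 for sulfur and 6 of 17 for branched chains. Smaller lists had 2 of 5 for serine, 1 of 4 for proline, 1 of 3 for lysine, 0 of 4 for aminotransferases and 0 of 2 for histidine. Among the highest were Bhmt2, a second homocysteine methyltransferase (3.04 ± 0.20), Aadat, an aminotransferase of aminoadipate and kynurenine (2.60 ± 0.23), and Gatm, which makes the creatine precursor guanidinoacetate (2.59 ± 0.07). Ido2 read 2.40 here, but 4.01 with the scanner software's ratios, above Bhmt2 at 3.12, so its place depends on the processing. Below these were Gnmt, glycine N-methyltransferase (2.20 ± 0.22), Ftcd, which passes a carbon from histidine to folate (2.09 ± 0.28), and Kyat1, a kynurenine aminotransferase (1.98 ± 0.18). The 2 lower genes were Hal, histidine ammonia-lyase, and Mthfd1l, a mitochondrial folate enzyme. Hal had signals of 6.57 and 6.38 with HMPA, against 8.19 and 8.13 with adenine alone (log2 ratio −1.69 ± 0.06, or −2.90 with the scanner software). Mthfd1l had signals of 7.66 and 7.72 with HMPA, against 8.82 and 8.78 with adenine alone (log2 ratio −1.12 ± 0.05). Mat1a, the liver form of methionine adenosyltransferase, was likewise too dim.

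Bhmt, Bhmt2 and Dmgdh are neighbours on chromosome 13 in the GRCm38 gene order, and all 3 were higher. The probe of Bhmt also lists Bhmt2, so the values of these paralogs may not be separate readings. The genes around them were looked up after these values were seen. Arsb, the lysosomal arylsulfatase B gene that follows Dmgdh, was higher at 1.44 ± 0.10. Jmy on the far side of Bhmt read −0.23 ± 0.12 and Lhfpl2 beyond Arsb −0.63 ± 0.19, and neither met the rule. The locus Gm6109 between Jmy and Bhmt was not measured.

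Promoter sequences from RefSeq (GRCm38.p6) matched 34 of the 38 genes, with 38 promoters of 250 bases before and 50 after the start. Their median GC content was 58.7%, against 52.7% over all 32851 promoters of the table, and their median count of CpG was 10, against 7. The promoters of Dmgdh and Hgd are printed because these 2 genes had the highest ratios after the correction with an offset of 50, and that of Agxt2 because it holds the letters of an HNF4 core close to the start. Each line gives the 250 bases before the start, on the plus strand, with motif letters in capitals. They lie at chr13:93674186-93674435, chr16:37579903-37580152 and chr15:10358283-10358532 in that order.
Dmgdh promoter: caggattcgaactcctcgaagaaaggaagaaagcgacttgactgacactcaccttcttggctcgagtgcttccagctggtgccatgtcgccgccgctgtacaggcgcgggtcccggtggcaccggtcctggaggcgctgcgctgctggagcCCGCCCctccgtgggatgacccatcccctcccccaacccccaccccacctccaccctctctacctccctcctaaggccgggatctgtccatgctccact
Hgd promoter: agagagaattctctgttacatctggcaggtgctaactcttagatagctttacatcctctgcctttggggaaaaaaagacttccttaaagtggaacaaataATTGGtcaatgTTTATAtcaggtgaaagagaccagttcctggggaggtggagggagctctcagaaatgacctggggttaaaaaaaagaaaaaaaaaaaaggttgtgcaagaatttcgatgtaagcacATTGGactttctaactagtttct
Agxt2 promoter: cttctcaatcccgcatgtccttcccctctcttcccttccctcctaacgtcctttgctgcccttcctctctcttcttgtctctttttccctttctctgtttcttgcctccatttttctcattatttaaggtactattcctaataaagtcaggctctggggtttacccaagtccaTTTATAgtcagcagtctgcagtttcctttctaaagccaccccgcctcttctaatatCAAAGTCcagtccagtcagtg
The Dmgdh promoter held the GC box letters GGGCGG on the reverse strand at −99 and at 16 from the start. The second of these lies past the printed bases. The 300 bases of this promoter had a GC content of 68% and 25 CpG. The Hgd promoter had a GC content of 41% and 2 CpG, and held CCAAT on the reverse strand at −150 and −23 and TATAAA on the reverse strand at −139.

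The motifs were searched as exact letters on both strands, and they do not overlap each other in the printed lines. CCAAT was in 57.9% of the 38 promoters, against 37.4% of all promoters, and GGGCGG was in 55.3%, against 35.7%. TATAAA was in 10.5%, against 13.6%, and the E-box letters CACGTG in 5.26%, against 7.15%. GTTAAT, a half-site of the factor HNF1, was in 10.5%, against 7.10%, and CAAAGTC, the core of an HNF4 site, in 7.89%, against 4.44%. By count, CAAAGTC was in only 3 promoters of 2 genes, and TATAAA in 4 promoters of 3 genes. The 2 promoters of Agxt2 overlap and share both motifs, so the same letters were counted more than once. Agxt2 held CAAAGTC at −21 and TATAAA on the reverse strand at −77. These are matches of letters, with no measure of binding, and some genes have more than 1 promoter among the 38.

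Markers of some cell types were higher with HMPA and those of others lower. All 15 proximal tubule markers were measured, and 14 were higher and 0 lower (median 2.20), and among them Slc34a1, the phosphate transporter of the brush border, read 2.68 ± 0.77 and Lrp2, the endocytic receptor megalin, 2.73 ± 0.07. The arrays gave 3.45 and 1.91 for Slc34a1, and its second probe read 1.65. Dimmer probes of Lrp2 read 2.14, 1.65 and 1.51. The summed signals of the 15 markers were 167053 and 151125 with HMPA, against 27754 and 37266 with adenine alone. Sums were taken of signals that were not logged, so the brightest probes weigh most in them. The 1 exception was Aqp1, a water channel, at 0.69. Of 9 fibroblast and myofibroblast markers 0 were higher and 8 lower (median −1.81), with summed signals of 19581 and 15890 with HMPA, against 113116 and 101749 with adenine alone. All 9 macrophage markers were lower, with a median of −2.04 and summed signals of 3808 and 3378 with HMPA, against 15798 and 15676 with adenine alone. In RNA of whole kidney, fewer cells of a type and less RNA per cell cannot be told apart. The part of these markers in the ratios of the 38 genes was not tested.

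Liver makes many of the same enzymes, so hepatocyte markers were read as well. Of 10 such genes 7 were measured, and Alb, albumin, was higher at 1.05 ± 0.13. Alb was well above background in 3 of 4 channels, and it missed the rule with median centring and on array 1 alone, at 0.92 in each. The median of the 7 was 0.37, and their summed signals were 965 and 1016 with HMPA, against 798 and 844 with adenine alone. With the scanner software's ratios 5 of the 7 were higher and 0 lower (median 1.47), and Alb read 4.26 and Apoa2, which was well above background in 2 of 4 channels, 4.02. Of the 7 markers 6 read above 0, and Fgb, a fibrinogen chain, read −0.74 ± 0.18, or −0.92 with the scanner software's ratios. Fgb was well above background in all 4 channels, and it was lower by the rule with median centring. Apoa1 and Ahsg were not well above background, and Serpina1a had no named probe. The part of these markers in the ratios of the 38 genes was not tested either.

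**Figure D5:**
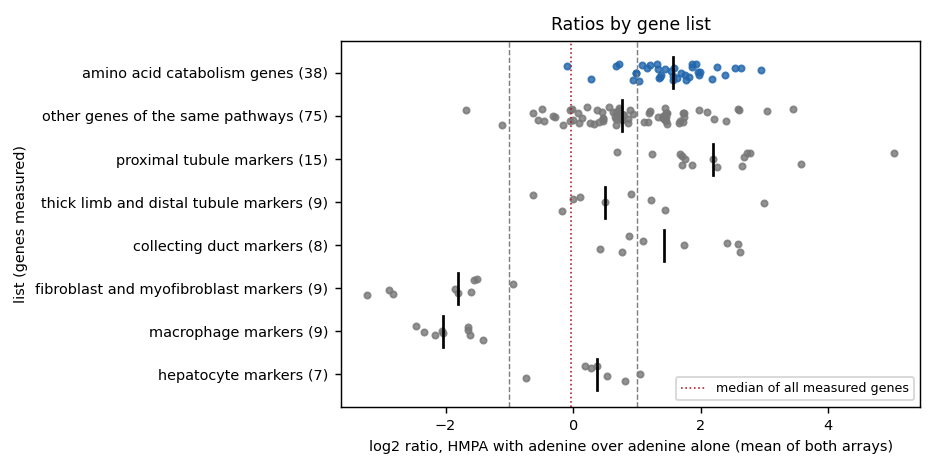
Log2 ratio of HMPA with adenine over adenine alone (x axis, mean of both arrays) of each measured gene in 8 lists (y axis, number measured in brackets); points are genes, black bars list medians, dashed lines 2-fold in either direction and the dotted line the median of all genes. The 38 genes have a median of 1.56, between 0.77 for the other genes of the same routes and 2.20 for the proximal tubule markers.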

How the data were processed

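Kidney RNA of 2 conditions was hybridised on 2 arrays with swapped dyes, on 1 slide in 1 scan. Per the file headers, the authors quantified the arrays with Feature Extraction 12.2.0.7; the submitters' processing notes name version 9.5. The deposited signal and background columns hold intensity per spot, not normalized. The deposited ratio column and value table hold the log10 of red over green after that software's background subtraction and dye normalization, with dyes not turned. Each array had 45018 spots, of which 43379 measured genes. Spots marked as unreliable, 281 on array 1 and 297 on array 2, got a weight of 0 and were left out, and 0 were saturated.

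R 4.3.3 with limma 3.58.1 applied normexp correction with an offset of 50 and loess within each array. All later steps used pandas 2.3.3 and numpy 2.4.6 under Python 3.11.15, and figures matplotlib 3.10.9. Signals per condition were taken after scaling the average intensity of both arrays to 1 distribution. Ratios were turned to HMPA over adenine, log2 transformed and averaged. A probe was kept (25138 of 41174) if 1 condition, the same on each array, stood well above background, and the brightest stood for its gene. Names came from a RefSeq table through probe accessions for 21374 of the 25138 kept probes, and through the gene symbols given for the probes otherwise. Probe positions are those of the files (mm9). The pipeline was tested on simulated data with known ratios. Only brighter probes were changed and scored in that test, so it does not cover the dimmest genes.

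With 1 RNA sample per condition no test across genes was possible, and the number of arrays limits the precision. All 38 genes are named, with up to 8 of the highest and all lower of the other pathway genes that met the rule, and Tat, Tdo2, Bcat2 and Mat1a whatever their value. A gene that this rule names is not reported here. At most 4 measured markers are named per list, and other probes of a gene are given where they differ by over 1 or in sign. The genes, lists and rules were chosen with earlier results of these data known. Other backgrounds, normalizations, probe filters, rules of size and single arrays were tried. The software's p-values per spot were not used, since they describe 1 spot on 1 array.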

Additional observations from a re-analysis of the deposited data

How the results depend on the processing

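No paired analysis was possible because every ratio is already formed within 1 array, from 1 RNA sample per condition, which leaves nothing further to pair. In every setting tried, 28 to 36 of the 38 genes were higher, 0 were lower, and no called ratio changed sign. The median log2 ratio of the 38 genes was 1.72 with an offset of 16, 1.68 without background correction, 1.29 with median centring, 1.86 with the scanner software's ratios, 1.86 with the deposited value table, 1.44 with the mean over probes, and 1.51 to 1.53 with 1 array left out. Median centring in place of loess shifted the median of all genes by −0.18, and the 38 genes then lay 1.51 above it, against 1.60 with loess. It also moved the split of called genes to 749 higher and 1973 lower, against 1109 and 1289 with loess, and 27.5% of called genes were higher, against 46.2%. The scanner software's ratios gave 2043 higher and 2461 lower genes, 2040 and 2459 were counted from the value table, and 2255 and 2699 by a rule of 1.5-fold. Of the 38 genes, Fah, Dbt and Gpt no longer met the rule with median centring, Dbt without array 1 and Fah, Acmsd and Gpt without array 2, and Acmsd was not measured when all 4 channels were required. Among the aminotransferases 1 gene met the rule with median centring and 1 to 2 with an array left out. Bckdhb, Mccc2 and Auh met it with an offset of 16, without background correction and with the scanner software's ratios. The scanner software's ratios moved 7 of the 38 genes by over 1.5-fold, by up to 2.60 for Acmsd. The cause of the other changes was not tested. Signal over background limits Kynu, Acmsd, Hpd, Mccc2 and the other dim genes, whose folds depend on the correction, and no setting replaces RNA from separate animals.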

Other observations

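Markers of other parts of the kidney were read by the same rule. Of 8 measured collecting duct markers 5 met it upwards and 0 downwards (median log2 ratio 1.42), with summed signals of 14840 and 14583 with HMPA, against 3374 and 3564 with adenine alone. Of 9 markers of the thick limb and distal tubule 3 met it upwards and 0 downwards (median 0.49), with summed signals of 58496 and 64225 with HMPA, against 42684 and 47647 with adenine alone. The brightest of these probes, that of Umod, weighs most in the sums and read 0.11 ± 0.12. Higher values were thus not confined to the proximal tubule list among these tubule lists. Of 7 endothelial markers 0 were higher or lower, with a median of −0.15, and of 6 podocyte markers 1 was lower, with a median of −0.28. Of 6 neutrophil markers 4 were lower, with a median of −1.26, and of 5 adipocyte markers 2 were lower, with a median of −0.99. These 2 lists are dim: with the scanner software's ratios 6 of 6 neutrophil markers were lower, with a median of −3.13, and 3 of 5 adipocyte markers, with a median of −2.87. By that setting 7 of 8 collecting duct and 4 of 9 thick limb and distal tubule markers were higher. Of 7 measured markers of T and B lymphocytes 0 were higher or lower, with a median of −0.09, and 1 was higher with the scanner software's ratios.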
